A study of Mus musculus with 14 samples.

Results

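The genes described here encode the respiratory chain and its ATP synthase: the subunits and named assembly factors of complexes I to V, whether they are carried in the nucleus or on mitochondrial DNA. They were chosen by symbol (Nduf, Sdha to Sdhd, Uqcr, Cox followed by a digit, Atp5, mt-Nd, mt-Co, mt-Cyt and mt-Atp), with pseudogenes marked -ps dropped and with at least 80 counts summed over 8 RNA-seq libraries. This gave 112 of the 43629 genes in the count tables, 101 of them nuclear and 11 mitochondrially encoded. The summed count was the only measured value in the choice. Cox7a1 with 91 counts, mt-Co3 with 133 and mt-Co2 with 141 lay just inside the minimum, and Ndufa4l2 with 38, Cox7b2 with 27 and Cox4i2 with 26 just outside it. A further 2 mitochondrial genes, mt-Atp6 with 16 counts and mt-Nd4l with 1, also fell below it.

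The RNA came from primary hippocampal cultures of C57BL6 wild-type mice, prepared from pups 0 to 1 days old and grown for 14 days in vitro in a medium with 2% B27, a serum-free supplement for neurons. For 15 h, 4 cultures received 0.1% DMSO, the solvent (CTRL), and 4 received 100 µM picrotoxin (PTX), which blocks GABA-A receptors and so removes fast inhibition. Such cultures mix neurons and glia, and in bulk RNA fewer cells of a type and less RNA per cell cannot be told apart. The chromatin data were ChIP-seq for the chromatin reader L3mbtl1 from untreated hippocampus of C57BL6/129 mice of postnatal day 7 to 8, 3 wild-type and 3 L3mbtl1-/-, analysed here as 1 list of 4677 peaks. The comparison of PTX with CTRL asks how RNA levels differ after a long rise in network activity. The peak list shows which of the genes lie beside L3mbtl1.

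Complex I (NADH dehydrogenase) and complex II (succinate dehydrogenase) pass electrons to ubiquinone, complex III passes them to cytochrome c, and complex IV (cytochrome c oxidase) passes them to oxygen. Complexes I, III and IV pump protons, and complex V, the ATP synthase, uses the gradient to make ATP. In neurons most of this ATP pays for ion pumping and synaptic transmission. Mitochondrial DNA encodes a small set of core subunits that are transcribed as long polycistronic RNAs and then cut apart, while all other subunits, and every assembly factor, come from nuclear genes and are imported.

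Gene counts per library ran from 14524916 to 19498189, and the low-count filter kept all 112 members. Of all counted alignments, 15.2% to 20.5% were at non-unique positions and entered no gene, so members with near-identical copies elsewhere in the genome are uncertain. Marker genes of meningeal fibroblasts, 9 of 9 tested, summed to 760.8 CPM in CTRL 1 and 681.4 CPM in PTX 1, against 185.9 to 278.9 CPM in the other 6 libraries, so both libraries numbered 1 stood apart. The same libraries were the lowest in markers of microglia, 7 of 8 tested (46.9 and 52.0 CPM, against 98.3 to 198.2 CPM), and of oligodendrocyte precursors, 5 of 5 tested (167.8 and 182.3 CPM, against 289.6 to 440.2 CPM), and none of these passed the test. Astrocyte markers, 9 of 9 tested, summed to 6465 to 8641 CPM in CTRL and 4707 to 6459 CPM in PTX, and 5 of them passed the test as lower. Of 8 excitatory neuron markers 6 passed as lower and 1, Slc17a6, as higher. Their sums were 483.6 to 626.0 CPM in CTRL and 668.9 to 836.2 CPM in PTX. The higher sum came from Slc17a6, with a mean of 39.4 CPM in CTRL and 501.2 CPM in PTX. Of 8 inhibitory neuron markers 2 passed as lower and 5 as higher, with sums of 575.5 to 739.1 CPM and 1037 to 1178 CPM. Of the 9 fibroblast markers 1, Fn1, passed as higher (log2 fold change 1.19, edgeR adjusted p = 0.000932) and none as lower. Of 4 endothelial markers tested 2 passed as higher, and of 7 pan-neuronal markers 2 passed as higher and 2 as lower. None of 5 oligodendrocyte markers tested passed. No marker of these lists was at 0 in all libraries, and the part of these cells in the results below was not tested. CPM are a gene's counts relative to the library size, after scaling by TMM, a correction for differences in composition.

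After 15 h of picrotoxin most nuclear respiratory chain genes did not pass the test for a change. Of the 101 nuclear members, 5 rose and 5 fell with PTX, and 91 did not pass the test (edgeR quasi-likelihood F test, Benjamini-Hochberg adjusted p under 0.05 over 15959 tested genes). That is 9.90% of the members, while 39.2% of all tested genes were called, 19.0% as higher and 20.1% as lower. Among tested genes with a mean of at least 10 CPM, 45.9% were called; of the 91 nuclear members at that level, 9.89% were. The median log2 fold change (PTX against CTRL) was -0.082 over the nuclear members and -0.033 over all tested genes. A change smaller than 0.25 on the log2 scale was found for 85 of the 101 (84.2%) and for 40.4% of all tested genes. The median SE (standard error) of these fold changes was 0.11 over the nuclear members and 0.14 over all tested genes.

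The replicate numbers were taken to pair the cultures, although the pairing of CTRL 3 with PTX 3 is uncertain. A fit with the replicate number as a block called 8 nuclear members as higher and 17 as lower. Over all tested genes that blocked fit called 55.3%, 25.7% as higher and 29.6% as lower, and the nuclear members stood at 7.92% and 16.8%. Without any TMM factor the split was 3 higher and 9 lower. The count of higher members dropped to 2 without CTRL 2, CTRL 3 or CTRL 4. That of lower members dropped to 3 without CTRL 1, PTX 1, PTX 3 or PTX 4 and rose to 10 without PTX 2. The nuclear members together took 1.03% ± 0.069 (SD, n = 4) of gene counts in CTRL and 0.957% ± 0.080 (SD, n = 4) in PTX. The ranges, 0.947% to 1.09% and 0.903% to 1.07%, overlapped, but each PTX library had a smaller share than the CTRL library of its number.

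**Figure D1:**
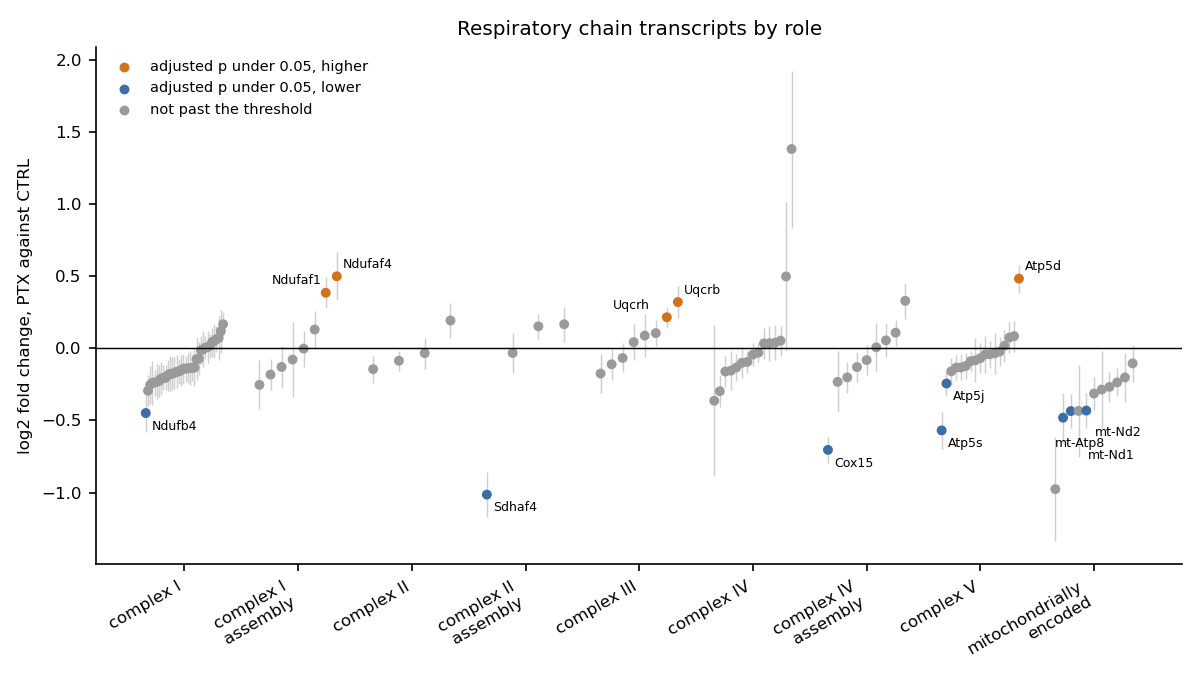
Log2 fold change of PTX against CTRL (vertical axis) for the 112 members, sorted within each role (horizontal axis), with bars of 1 SE. Coloured points passed the test, orange for 5 higher and blue for 8 lower, and most grey points lie within 0.25 of the zero line.

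The 36 complex I subunits had small fold changes, most of them negative. Of them, 27 had a negative log2 fold change (75.0%, against 52.9% of all tested genes), with a median of -0.14 and a range from -0.45 to 0.17. Ndufb4, an accessory subunit of the membrane arm, was the 1 that passed the test. It measured 31.0, 30.2, 25.9 and 28.0 CPM in CTRL 1 to 4 and 19.5, 26.8, 18.2 and 19.7 CPM in PTX 1 to 4. PTX 2 lay inside the CTRL range and the other 3 PTX libraries lay below it. The log2 fold change was -0.45 (SE 0.13, edgeR adjusted p = 0.0208), and the call was lost in 5 of 15 alternatives, among them the fits without CTRL 1, PTX 1, PTX 3 or PTX 4.

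Ndufs1, which carries iron-sulfur clusters of the NADH-oxidising arm, measured 287.6, 261.6, 227.4 and 211.0 CPM in CTRL and 216.2, 208.2, 200.4 and 180.8 CPM in PTX. Each PTX library was below the CTRL library of the same number, although the groups overlapped. Its log2 fold change of -0.29 (SE 0.11) gave an edgeR adjusted p of 0.0555, and 0.00197 with the replicate block. The blocked fit called 11 complex I subunits as lower and none as higher, which is 30.6% of the 36 and close to the 29.6% of all tested genes called lower there. Besides Ndufb4 and Ndufs1 these were Ndufa6, Ndufa11, Ndufb3, Ndufb7, Ndufc1, Ndufc2, Ndufs3, Ndufs6 and Ndufv3, with unblocked log2 fold changes between -0.25 and -0.17 and none past the unblocked test. Ndufv2, a core flavoprotein partner, had a log2 fold change of -0.0067 (edgeR adjusted p = 0.973).

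Among the 8 complex I assembly factors 2 rose and none fell. Ndufaf1, a core chaperone of the membrane arm, measured 30.8, 28.7, 28.1 and 24.1 CPM in CTRL and 42.1, 32.4, 37.1 and 34.3 CPM in PTX. All 4 PTX libraries were above all 4 CTRL libraries. The log2 fold change was 0.39 (SE 0.11, edgeR adjusted p = 0.018), and the call held in all 15 alternatives. Ndufaf4, an early assembly factor, measured 45.8, 31.5, 27.5 and 26.9 CPM in CTRL and 50.5, 45.5, 49.4 and 40.7 CPM in PTX. CTRL 1 alone reached into the PTX range. Its log2 fold change was 0.50 (SE 0.17, edgeR adjusted p = 0.036), and the call was lost without CTRL 2, CTRL 3, CTRL 4, PTX 2 or PTX 3. Ndufaf5 (-0.0022) and Ndufaf7 (-0.18), which modify subunits of the complex, gave edgeR adjusted p of 0.992 and 0.222.

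The 4 subunits of complex II, which also belongs to the TCA cycle, did not pass the test in either direction, nor at an unadjusted p under 0.05 or with DESeq2. Sdha, the flavoprotein that oxidises succinate, had a log2 fold change of -0.086 (SE 0.071, edgeR adjusted p = 0.376). Sdhb, the iron-sulfur subunit, had one of 0.19 (SE 0.12, edgeR adjusted p = 0.257) and was above CTRL in 4 of 4 same-numbered pairs, and the replicate block alone called it (adjusted p = 0.0279).

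The largest fall among the members that passed the test belonged to a complex II assembly factor. Sdhaf4, which binds the flavinated Sdha before Sdhb joins it, measured 8.49, 9.71, 8.39 and 8.49 CPM in CTRL and 3.77, 5.13, 4.69 and 3.76 CPM in PTX. The groups were far apart: the highest PTX library lay below the lowest CTRL library by more than the range of either group. The mean fell from 8.77 ± 0.63 to 4.34 ± 0.69 CPM (SD, n = 4), a log2 fold change of -1.01 (SE 0.15, edgeR adjusted p = 0.000578), and the call held in all 15 alternatives. The other 3 complex II assembly factors were not called, and Sdhaf1 and Sdhaf2 had log2 fold changes of -0.033 and 0.15. RefSeq lists Gm53062 over part of Sdhaf4, and since no source used here gives the strand setting of the counting, reads of the 2 genes cannot be told apart. The same holds for other called members whose RefSeq spans overlap another gene: Ndufaf4 (Gm46848), Uqcrh (Gm12854), Atp5d (Cbarp), Cox15 (Entpd7) and Atp5j (Gabpa).

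The 250 bases before the RefSeq start of Sdhaf4 (GRCm38.p6, chr1:24005641-24005890, minus strand) are shown because an L3mbtl1 peak covers their last 16 bases and the body of the gene beside them. Capitals mark letters of the NRF1 motif defined below, 44 to 36 bases before the start.

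Sdhaf4: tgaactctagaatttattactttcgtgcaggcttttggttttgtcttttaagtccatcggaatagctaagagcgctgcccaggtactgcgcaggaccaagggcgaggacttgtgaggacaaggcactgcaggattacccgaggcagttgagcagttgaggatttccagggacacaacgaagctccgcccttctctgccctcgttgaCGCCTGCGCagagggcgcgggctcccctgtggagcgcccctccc

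Complex III had 2 risers among 8 subunits and no faller. Uqcrh, the hinge protein beside cytochrome c1, measured 138.9, 134.9, 129.9 and 125.7 CPM in CTRL and 147.7, 153.2, 159.2 and 154.6 CPM in PTX. Every PTX library was above every CTRL library, by a log2 fold change of 0.22 (SE 0.069, edgeR adjusted p = 0.031). Uqcrb, the ubiquinone-binding protein, measured 153.0, 138.2, 120.4 and 119.7 CPM in CTRL and 150.9, 192.0, 164.8 and 155.8 CPM in PTX. CTRL 1 and PTX 1 were nearly level, and the other 3 PTX libraries were above all of CTRL (log2 fold change 0.32, SE 0.11, edgeR adjusted p = 0.0407). Both calls were lost without CTRL 2, CTRL 3 or CTRL 4, with no TMM factor and with no low-count filter, and for Uqcrb also without PTX 2. The core proteins Uqcrc1 (0.11) and Uqcrc2 (-0.067) were not called.

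None of the 15 complex IV subunits passed the edgeR test. At an unadjusted p under 0.05 there was 1 in each direction, and DESeq2 called 1 as higher. Cox4i1, the main form of the largest nuclear subunit, had a log2 fold change of -0.13 (SE 0.093, edgeR adjusted p = 0.298). The most counted subunits, Cox7b and Cox6c, had log2 fold changes of -0.044 and -0.094. Several subunits exist as paired forms with different tissue ranges. The common forms Cox6a1 (0.053), Cox6b1 (0.034), Cox7a2 (-0.15) and Cox8a (-0.10) and Ndufa4 (-0.16), now counted as a complex IV subunit, stayed below 0.25 on the log2 scale and were not called. The muscle forms Cox6a2 with 200 counts and Cox7a1 with 91 were too sparse for a firm value (-0.36, SE 0.52, and 0.50, SE 0.52), and Cox8b had 3 counts and Cox8c none over the 8 libraries.

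Cox6b2, the form first described in testis, was the least even member. It measured 1.24, 3.20, 4.14 and 3.85 CPM in CTRL and 2.11, 7.14, 6.89 and 16.3 CPM in PTX. PTX 1 lay inside the CTRL range and PTX 4 far above all others, and each PTX library was above the CTRL library of its number. The log2 fold change of 1.38 had an SE of 0.54 and an edgeR adjusted p of 0.0695, and 0.000202 with the replicate block. Cox7a2l had a log2 fold change of -0.30 (SE 0.11, edgeR adjusted p = 0.0561), and the block called it as lower (adjusted p = 0.00122).

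Of the 9 complex IV assembly factors 1 fell and none rose. Cox15, which makes the heme A of the catalytic centre, measured 39.1, 36.0, 35.1 and 33.0 CPM in CTRL and 22.3, 24.3, 19.9 and 21.4 CPM in PTX. The 2 groups were well separated. The mean went from 35.8 ± 2.53 to 22.0 ± 1.83 CPM (SD, n = 4), a log2 fold change of -0.70 (SE 0.093, edgeR adjusted p = 0.000233), and the call held in all 15 alternatives. Cox11, which delivers copper, did not overlap between groups and had a log2 fold change of 0.33 (adjusted p = 0.0583, and 0.0168 with the block). Cox10, which acts one step before Cox15 in heme A synthesis, had one of 0.055 (adjusted p = 0.756), and Cox14, Cox19 and Cox20 had values of -0.082, 0.11 and -0.20, none of them called.

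Complex V had 1 riser and 2 fallers among 17 genes. Atp5d, the delta subunit of the central stalk, measured 27.7, 25.8, 27.9 and 22.5 CPM in CTRL and 37.0, 39.7, 33.5 and 35.0 CPM in PTX. All PTX libraries were above all CTRL libraries (log2 fold change 0.48, SE 0.10, edgeR adjusted p = 0.00295), and the call held in all 15 alternatives. Atp5s, also called factor B or Dmac2l, measured 14.4, 13.1, 11.4 and 12.5 CPM in CTRL and 8.94, 9.61, 7.58 and 8.50 CPM in PTX. Its groups did not overlap either (log2 fold change -0.57, SE 0.13, edgeR adjusted p = 0.00526), and the call held in all 15 alternatives.

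Atp5j, coupling factor 6 of the side stalk, measured 82.7, 77.5, 85.9 and 84.4 CPM in CTRL and 60.8, 70.5, 70.5 and 77.2 CPM in PTX. PTX 4 came just below the lowest CTRL library, CTRL 2. The log2 fold change was -0.24 (SE 0.088, edgeR adjusted p = 0.0494), and the call was lost in 10 of 15 alternatives, 7 of them fits with 1 library left out, among them every PTX library. Gabpa, which overlaps it, encodes a regulator of respiratory genes. The most counted nuclear members, the catalytic subunits Atp5a1 (-0.069, SE 0.10) and Atp5b (0.074, SE 0.11), were not called. The 3 genes Atp5g1, Atp5g2 and Atp5g3 encode an identical c-ring protein, and had log2 fold changes of 0.018, -0.035 and -0.13 with none called.

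Across complexes, 6 of 80 nuclear subunits (7.50%) and 4 of 21 assembly factors (19.0%) were called, both under the 39.2% of all tested genes. The difference between these shares was not tested. Roles were set by symbol, so Atp5s, which is among the 6, and Cox7a2l, which was not called, count as subunits here. In all, 10 nuclear members had groups that did not overlap, 9.90% of them, against 38.0% of all tested genes.

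**Figure D2:**
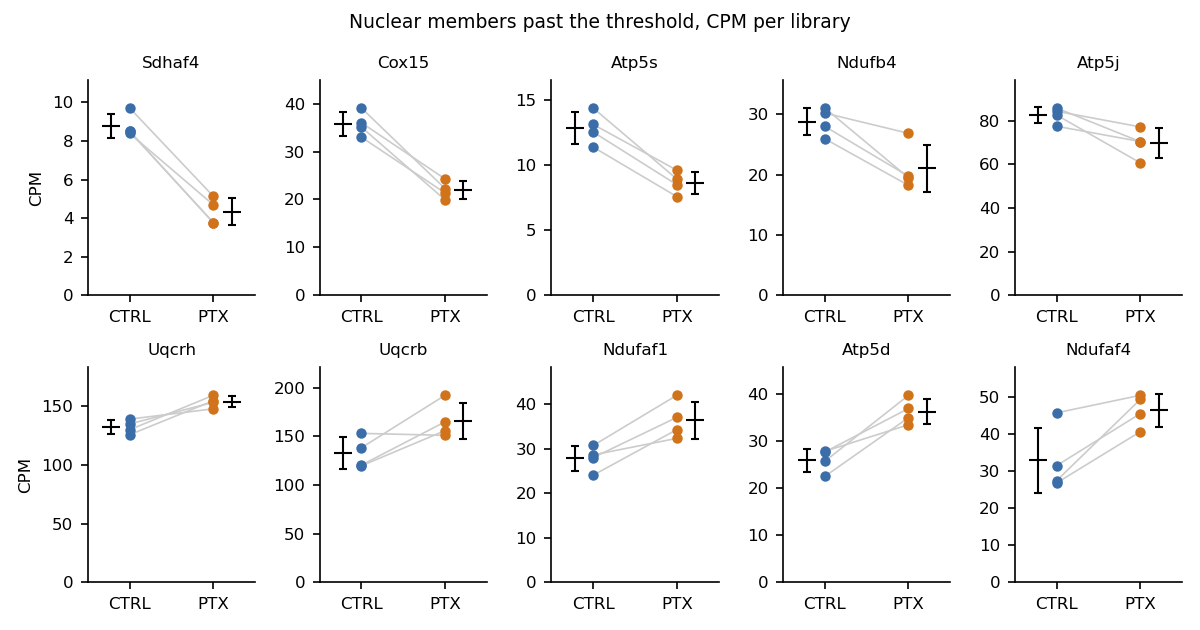
CPM per library (vertical axes from 0) of the 10 nuclear members past the threshold, CTRL in blue and PTX in orange, with lines joining libraries of the same number and black bars for the mean and SD of 4. Sdhaf4 and Cox15 show wide gaps between the groups, while single libraries overlap in Ndufb4, Uqcrb and Ndufaf4.

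The 11 mitochondrially encoded members all had a negative log2 fold change, from -0.98 to -0.10 with a median of -0.31. Of them 3 fell (27.3%), where 20.1% of all tested genes fell, and none rose, also at an unadjusted p under 0.05 and with DESeq2. The blocked fit called 8 as lower, all but mt-Co1, mt-Co2 and mt-Co3, where 29.6% of all tested genes were called lower. All but mt-Nd6, which is encoded on the other strand, are cut from shared precursor transcripts, and the 11 are not independent of each other. Together they took 1.35%, 1.04%, 1.20% and 1.12% of gene counts in CTRL 1 to 4 and 1.10%, 1.00%, 1.05% and 0.987% in PTX 1 to 4, ranges that overlap although each PTX share was below that of its CTRL partner. Leaving out mt-Co1, the rest took 0.120% to 0.157% in CTRL and 0.101% to 0.113% in PTX, ranges that do not.

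The number of these genes that passed depended on single libraries. Without CTRL 1 none of the 11 did in the edgeR fit (3 at an unadjusted p under 0.05), and the value of mt-Co1 turned to 0.055. Without CTRL 3, PTX 3 or PTX 4, or without both libraries numbered 1, the number was 1 each time, and without CTRL 2 it was 5. Without both libraries numbered 1 the value of mt-Co1 was 0.0020. CTRL 1, which also held the highest fibroblast marker sum, had the highest share of mitochondrial counts of the 8 libraries.

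mt-Nd1, a membrane subunit of complex I at the head of the coding genes, measured 601.8, 436.5, 600.2 and 474.7 CPM in CTRL and 394.1, 363.6, 407.7 and 397.3 CPM in PTX. The PTX libraries lay close together and all below CTRL, and CTRL 1 and CTRL 3 were the highest. The mean fell from 528.3 ± 85.4 to 390.7 ± 18.9 CPM (SD, n = 4; log2 fold change -0.44, SE 0.12, edgeR adjusted p = 0.0134). The adjusted p was 0.0622 without CTRL 1, 0.0561 without PTX 4 and 0.0585 without both libraries numbered 1.

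mt-Nd2, next in order, measured 55.4, 40.1, 50.7 and 40.6 CPM in CTRL and 35.0, 32.6, 32.3 and 38.6 CPM in PTX. It repeated the pattern of mt-Nd1, with CTRL 1 and CTRL 3 high and no overlap (log2 fold change -0.43, SE 0.12, edgeR adjusted p = 0.0168). The call was lost without CTRL 1, CTRL 3 or PTX 3, and without both libraries numbered 1. mt-Atp8, a small subunit of the ATP synthase, measured 108.1, 88.0, 93.1 and 83.2 CPM in CTRL and 88.5, 46.9, 62.3 and 69.2 CPM in PTX. PTX 1 overlapped CTRL (log2 fold change -0.48, SE 0.17, edgeR adjusted p = 0.0487), and the call was lost in 8 of 15 alternatives, 7 of them with 1 library left out (every CTRL library, and PTX 2, PTX 3 and PTX 4).

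The remaining complex I subunits missed the threshold without the block. mt-Nd4 went from 107.7 ± 17.6 to 86.7 ± 4.18 CPM (SD, n = 4; log2 fold change -0.31, edgeR adjusted p = 0.0547) and mt-Nd5 from 187.6 ± 20.1 to 159.3 ± 12.1 CPM (log2 fold change -0.24, edgeR adjusted p = 0.0798). mt-Nd6, the 1 subunit encoded on the light strand, measured 56.5, 41.5, 45.9 and 41.0 CPM in CTRL and 52.5, 29.5, 37.6 and 41.2 CPM in PTX (log2 fold change -0.20, SE 0.17, edgeR adjusted p = 0.387). mt-Nd3 had 154 counts in all, with 1.40 to 1.57 CPM in CTRL and 0.574, 1.36, 0.345 and 0.728 CPM in PTX 1 to 4, with no overlap (log2 fold change -0.98, SE 0.36, edgeR adjusted p = 0.0547). With the block these 4 gave adjusted p of 0.00773, 0.019, 0.0443 and 0.0141.

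mt-Cytb, the mitochondrial subunit of complex III, measured 414.4, 306.8, 403.4 and 361.6 CPM in CTRL and 312.9, 293.9, 296.6 and 331.2 CPM in PTX (log2 fold change -0.27, SE 0.10, edgeR adjusted p = 0.0653, and 0.0102 with the block). mt-Co1, the catalytic core of complex IV, measured 12366, 8915, 10145 and 9300 CPM in CTRL and 10228, 8941, 9809 and 8903 CPM in PTX. Its groups overlapped almost fully (log2 fold change -0.10, SE 0.13, edgeR adjusted p = 0.559). mt-Co2 and mt-Co3 gave -0.29 (SE 0.27) and -0.43 (SE 0.32) from 141 and 133 counts, with edgeR adjusted p of 0.441 and 0.323.

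**Figure D3:**
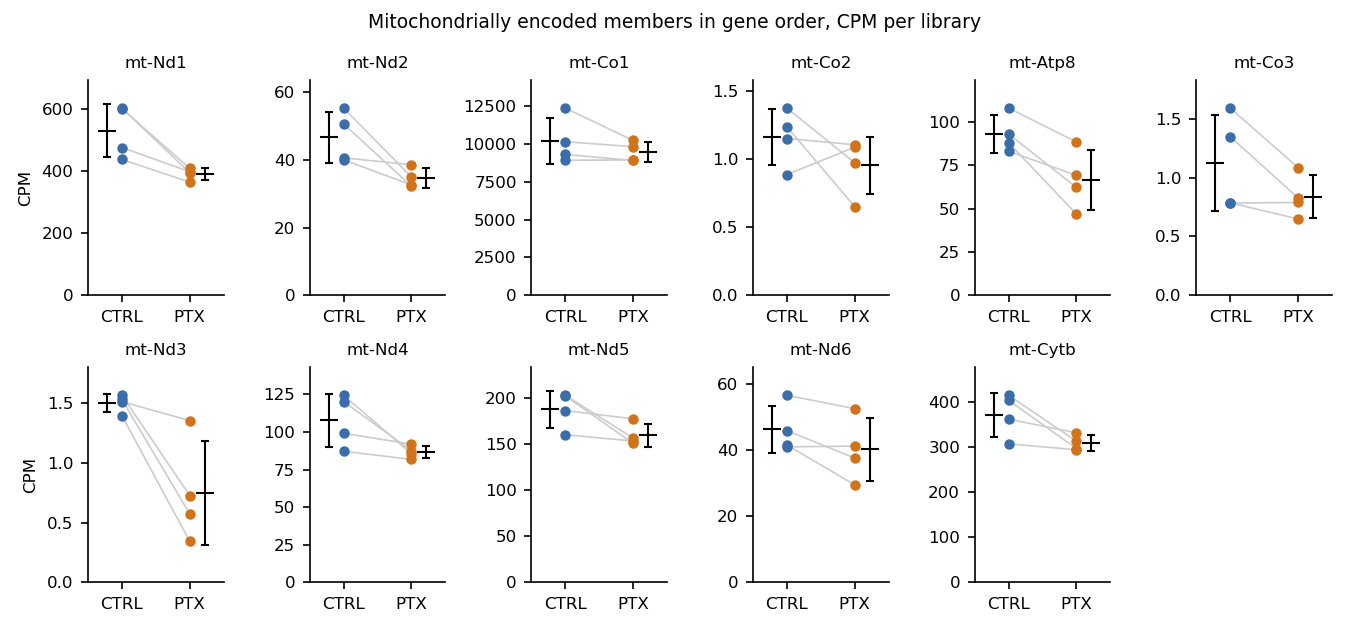
CPM per library (vertical axes from 0) of the 11 mitochondrially encoded members in their order on mitochondrial DNA, CTRL in blue and PTX in orange, with lines joining libraries of the same number and black bars for the mean and SD of 4. The PTX points of mt-Nd1 and mt-Nd2 lie below all CTRL points, and those of mt-Co1 overlap them.

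Levels along mitochondrial DNA were very uneven, also among the genes that share precursors. Per kb of gene and summed over the 8 libraries, mt-Co1 had 851142 counts, mt-Nd1 64861, mt-Atp8 52760, mt-Cytb 39996, mt-Nd5 12787, mt-Nd6 11160, mt-Nd4 9515 and mt-Nd2 5294. From mt-Co2 to mt-Nd4l the other genes dropped by orders of magnitude: mt-Nd3 had 442.5 counts per kb, mt-Co2 206.1, mt-Co3 169.6, mt-Atp6 23.5 and mt-Nd4l 3.37. mt-Co1 made up 86.9% to 88.8% of the mitochondrial members' counts in CTRL and 88.6% to 90.1% in PTX. RefSeq lists 2 pseudogenes on chromosome 1 in this connection. Gm10925 (GRCm38.p6, chr1:24613971-24614651, 681 bp) has mt-Atp6 as a synonym and the length of mt-Atp6, and Gm10222 (chr1:24612404-24612700, 297 bp) has the length of mt-Nd4l. They had 16 and 0 counts. Whether reads of this stretch were dropped as non-unique was not tested. The levels of mt-Co2, mt-Atp8, mt-Atp6, mt-Co3, mt-Nd3 and mt-Nd4l are therefore uncertain, as is any comparison of level across mitochondrial genes. The span of mt-Atp8, which was called as lower, overlaps that of mt-Atp6 (bases 7766-7969 and 7927-8607 of mitochondrial DNA).

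**Figure D4:**
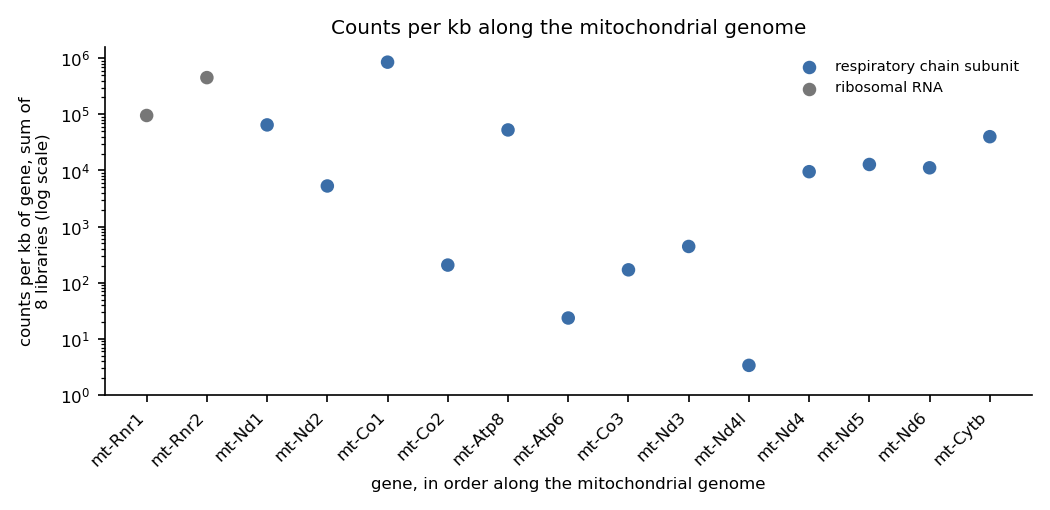
Counts per kb of gene summed over the 8 libraries (log axis) for mitochondrial genes in their order on mitochondrial DNA (horizontal axis), subunits in blue and ribosomal RNAs in grey. mt-Co1 stands at 851142, and apart from mt-Atp8 the genes from mt-Co2 to mt-Nd4l lie below 443.

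L3mbtl1 peaks lay beside the nuclear members about as often as beside other genes. Of the 101, 26 had a peak within 2000 bp of either gene end (25.7%), while 26.2% of 14957 tested genes with a position did. The peak lay at the start in 23 of them, at the end alone in Ndufv2 and Ndufb6, and Ndufa2 had no strand in the table used. Scores are the authors' own, with a meaning not given in the sources used here, and run from 8.17 to 52.2 in the list with a median of 10.7. The highest among members were 22.9 (Ndufv2) and 19.9 (Ndufb6), both in the shared space with Ankrd12 and with Smim27 and Topors. At the starts the highest were Ndufb11 (17.1), Cox20 (15.6), Ndufaf5 and Ndufa4 (both 14.9), Ndufs6 (13.5), Ndufaf4 and Ndufaf1 (both 13.4) and Cox15 (13.0). No peak lay on mitochondrial DNA.

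Of the 10 nuclear members called in PTX, 5 had a peak: Cox15 (chr19:43752627-43753189) and Sdhaf4 (chr1:24004411-24005656), which fell, and Ndufaf1 (chr2:119662544-119662796), Ndufaf4 (chr4:24897144-24897946) and Uqcrh (chr4:116075133-116075322), which rose. Of the 91 not called, 21 had one (23.1%). Over all tested genes the shares were 28.2% of called and 24.8% of not called. By the same roles set from symbols, assembly factors had a peak in 10 of 21 cases (47.6%) and subunits in 16 of 80 (20.0%). Over all tested genes with a position the share was 26.2%. None of these differences was tested, and Cutc shares the peak of Cox15, Lrrc41 that of Uqcrh and Gm46848 that of Ndufaf4. The peaks came from untreated tissue of another age, so they do not show binding after PTX.

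**Figure D5:**
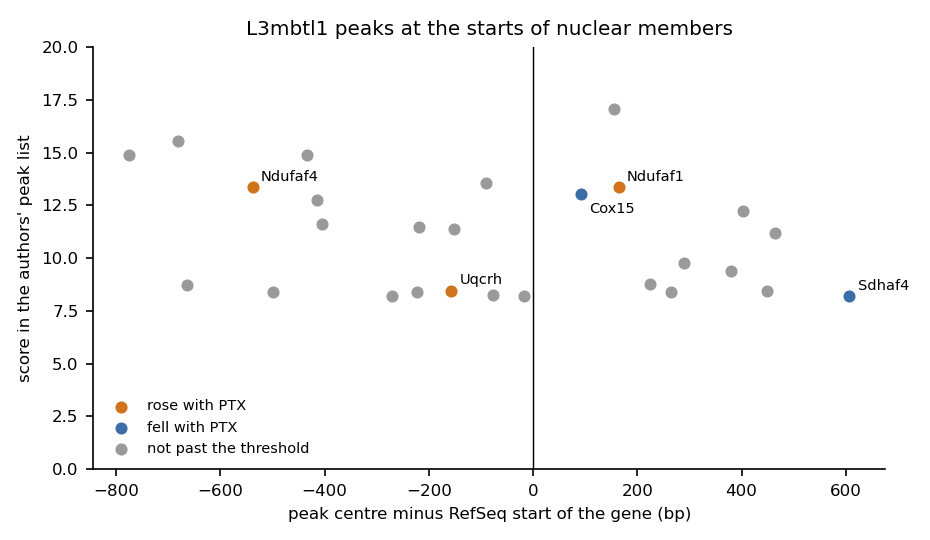
Distance of the peak centre in bp from the nearest start in the gene's RefSeq promoter windows, positive into the gene (horizontal axis). The vertical axis, from 0, gives the authors' score for 27 peaks at the starts of 23 nuclear members. For some genes, among them Atp5g3 and Cox20, that start differs from the end of the RefSeq span used to assign the peak. Peaks lie between -775 and 607 bp, and those of the 5 called members, in blue and orange, spread over both sides and over scores from 8.19 to 13.4.

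Nuclear respiratory genes are textbook targets of the factors NRF1, GABP (an ETS factor) and YY1. In RefSeq promoter windows of 250 bases before to 50 after the start, found for 85 nuclear members, both strands were searched for GCGCATGCG (NRF1), its looser form GCGCANGCG, CCGGAAGT (ETS) and AAGATGGC (YY1). The strict NRF1 letters were in 10 members (11.8%, against 1.75% of all 32851 windows and 3.80% of tested genes) and are part of the looser form. The looser form was in 24 (28.2%, against 6.25% and 14.2%), the ETS letters in 9 (10.6%, against 3.89% and 8.24%) and the YY1 letters in 13 (15.3%, against 2.75% and 4.82%). A match describes letters and does not show a site in use. Of the 10 called nuclear members 6 hold one of these motifs, Atp5s, Atp5d and Ndufaf1 hold none in their windows, and Uqcrb had no window. Matched stretches are shown for 5 of the 6 to let the letters be compared, each with 10 bases on both sides, in the direction of the gene and with the match in capitals. Ndufb4, Sdhaf4 and Ndufaf4 hold the looser NRF1 letters, Cox15 and Uqcrh the ETS letters and Atp5j the YY1 letters.

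Ndufb4: gagaagcagtGCGCACGCGcagaatacgc

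Ndufaf4: ccagatgtctGCGCATGCGcctgtgcgga

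Cox15: gacgcctgacCCGGAAGTgcttgttctt

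Uqcrh: agtatgccgcACTTCCGGccaggtcgcc

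Atp5j: aagtgtaggaAAGATGGCggagtcttag

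These stretches lie, on GRCm38.p6, at chr16:37654541-37654569 (Ndufb4), chr4:24897960-24897988 (Ndufaf4), chr19:43752976-43753003 (Cox15), chr4:116075064-116075091 (Uqcrh) and chr16:84835047-84835074 (Atp5j). The start used for the window of Atp5j lies inside its RefSeq span (chr16:84827871-84835857), and the Atp5j stretch lies within that span. Of the 5, Ndufaf4 and Uqcrh rose and the other 3 fell. The window of Ndufaf4 is shown in full because it holds the strict NRF1 letters in a palindrome and an L3mbtl1 peak covers 114 of its 250 bases (chr4:24897833-24898082, plus strand), which Gm46848 also overlaps.

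Ndufaf4: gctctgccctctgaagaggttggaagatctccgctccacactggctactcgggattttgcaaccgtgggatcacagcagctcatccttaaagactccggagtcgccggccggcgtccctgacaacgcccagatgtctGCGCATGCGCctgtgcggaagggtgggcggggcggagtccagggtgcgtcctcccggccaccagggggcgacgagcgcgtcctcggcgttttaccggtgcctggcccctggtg

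Of 13 regulators of mitochondrial genes measured, 3 rose and 2 fell, which is 38.5% and near the 39.2% of all tested genes called. On the log2 scale Nrf1 rose by 0.24 (SE 0.080, edgeR adjusted p = 0.0348), and of the GABP genes Gabpb1 rose by 0.30 (adjusted p = 0.0395) and Gabpb2 fell by 0.42 (adjusted p = 0.0187), while Gabpa had -0.039. These 3 calls were lost in some of the alternatives, with adjusted p of up to 0.118 (Nrf1), 0.106 (Gabpb1) and 0.0979 (Gabpb2). Esrrb, an orphan nuclear receptor, rose by 1.63 from a mean of 0.51 to 1.61 CPM, and its relative Esrrg fell by 0.95. Ppargc1a, the coactivator known as PGC-1alpha, had a log2 fold change of -0.0073 (SE 0.12, edgeR adjusted p = 0.969). Esrra (0.24), Ppargc1b (-0.17), Pprc1 (0.50), Perm1 (0.84), Sp1 (0.18) and Yy1 (-0.030) were not called.

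Other genes that work with the respiratory chain were taken from lists. Of 21 genes for cofactors and carriers, 6 rose and 3 fell (42.9%, against the 39.2% of all tested genes). Coq8a and Coq2, both needed to make ubiquinone, fell by 1.64 (SE 0.16, edgeR adjusted p = 4.42e-05) and 0.69, while Slc25a3, the phosphate carrier that feeds the ATP synthase, rose by 0.53 and Cycs, cytochrome c, by 0.69. Of 27 assembly factors under other symbols, 2 rose and 7 fell (33.3%, under the share of all tested genes), led by Tmem126b (-0.83), Lyrm7 (-0.79) and Nubpl (-0.69), which serve complexes I and III. Of 21 genes of the TCA cycle and pyruvate entry, 5 rose and 1 fell (28.6%, also under that share). Ogdh (0.58) and Dlst (0.46), both of the 2-oxoglutarate dehydrogenase complex, and Suclg1 (0.27, adjusted p of up to 0.0520 over the alternatives) were among the risers. The other subunits of succinyl-CoA ligase, Sucla2 (0.071) and Suclg2 (-0.19), were not called.

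Of 25 genes that copy, transcribe or process mitochondrial DNA and RNA, 1 rose and 5 fell, which is 24.0% against the 39.2% of all tested genes. The RNA-degrading enzyme Pnpt1 fell by 0.47 and Mterf2, a factor bound to mitochondrial DNA, by 0.58, while Mterf3 rose by 0.73. Tfam, which packages mitochondrial DNA and starts its transcription, had a log2 fold change of 0.10 and was not called. Of 20 genes for import, shape and mass of mitochondria, 4 rose and 3 fell (35.0%, against the same 39.2%). The chaperone Hspa9 rose by 0.80 and Timm23 by 0.36 (adjusted p of up to 0.0602 over the alternatives), while Tomm20, a receptor of the outer membrane, fell by 0.57. Of the uncoupling carriers, Slc25a27 fell by 0.89, Slc25a14 rose by 0.43 and Ucp2 had 0.21.

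The log2 CPM of each member was centred and divided by its SD over the 8 libraries, then averaged over members. The average of the mitochondrial members ran most closely with Ptbp3 (Pearson r = 0.98), C530008M17Rik, Ccdc6, Pias1 and Dnajc16 (r at least 0.977). That of the nuclear members ran most closely with Gm10143 (r = 0.977), Trappc13, Tomm22, Gm14325 and Acat1 (r at least 0.95). The correlations run over both treatments and over libraries of differing depth, and they describe the 8 libraries only.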

How the data were processed

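The authors deposited 1 table of unnormalised counts per Ensembl gene for each RNA-seq library. Per the labels' protocols, ribosomal RNA was depleted from total RNA (RiboZero) and 15 ng entered ScriptSeq v2 libraries. The submitters' processing notes name CASAVA 1.8, TopHat2 2.0.9, HTSeq 0.6.1, Bowtie2 2.2.4 and build mm10; no source used here gives the strand setting, the annotation release or how peaks were called. The HTSeq summary lines (no feature, 19.9% to 26.8% of alignments; not unique, 15.2% to 20.5%) stayed out of library sizes and tests. ChIP-seq values were the score per peak of the single peak list the authors deposited for all 6 samples, so wild type and L3mbtl1-/- were not compared.

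Counts were tested with edgeR 4.0.16 in R 4.3.3 (TMM, filterByExpr, quasi-likelihood F test, group only, Benjamini-Hochberg over all tested genes, threshold 0.05), and the SE is the log2 fold change over the square root of F. Alternatives were DESeq2 1.42.0, other scaling, no filter, the replicate block and leaving out libraries. Same-numbered CTRL and PTX libraries deviated together (correlations 0.77, 0.57, 0.15 and 0.61), each above the minimum of 0.1, and were taken as pairs. CTRL 3 ran closer to PTX 2 (0.2067) and PTX 4 (0.2085) than to PTX 3, so the pairing at number 3 is uncertain. The titles give the numbers. Nothing in the labels ties a culture to its animals, and p-values measure the spread between these cultures. No 2 libraries were copies. The fit was also run on simulated counts. These had fewer changed genes than the real data and no effect of the replicate number, so they do not measure error rates here.

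A gene had a peak if one overlapped the 2000 bp around either end of its RefSeq span (GRCm38.p6, the assembly of mm10) by at least 1 bp. Atp5s and Atp5f1 were matched through RefSeq synonyms. Promoter sequences are RefSeq's, without chromosome 18. The members, lists, tests and the rule for named genes (all mitochondrial members, the called members and the 2 most counted others of each role, isoform families, members of high peak score, the list genes of smallest p and all listed regulators) were chosen with earlier results of these data known. Other genes, such as Cox10, Cox11, Ndufa6, Tfam, Sucla2, Suclg2 and Ucp2, were named after their values were seen. A member that the rule names is not reported here.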

Additional observations from a re-analysis of the deposited data

Results flagged for a closer look

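In 114 groups of 4 libraries, 4 had a library whose gap to the nearest other exceeded Dixon's 95% critical value for 4 samples; chance alone gives about 1 in 20. Atp5g2 reached 37.4 CPM in PTX 2, where the other PTX libraries had 25.4 to 26.0. Atp5g3 was at 56.6 CPM in PTX 4, with 60.6 to 61.0 in the others. Ndufaf7 reached 54.6 CPM in PTX 2, with 40.2 to 42.3 in the others. Sdhaf4 was at 9.71 CPM in CTRL 2, with 8.39 to 8.49 in the other CTRL libraries, and its call held without that library.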

How the results depend on the processing

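Of the 13 called members none changed direction in the 15 alternatives, and Sdhaf4, Cox15, Atp5s, Atp5d and Ndufaf1 passed in all of them. With the replicate block 8 nuclear members passed as higher, 17 as lower and 8 mitochondrial members as lower; the block lost no call. With library size alone these counts were 3, 9 and 6. Without both libraries numbered 1, 3 nuclear and 1 mitochondrial members passed as lower. With 1 library left out, the counts ran from 2 to 7 (nuclear, higher), 3 to 10 (nuclear, lower) and 0 to 5 (mitochondrial, lower). Peaks above the list's median score lay beside 17 nuclear members in place of 26. The cause of these shifts was not tested.

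Some values that were not called changed sign, most of them near 0, but also Cox6a2 at -0.36 (SE 0.52). Without both libraries numbered 1 the log2 fold changes were 0.018 (Atp5a1), 0.041 (Atp5g2), 0.017 (Cox6c), 0.068 (Cox7b), 0.11 (Ndufaf5), 0.14 (Ndufv2), 0.049 (Uqcrc2) and 0.0020 (mt-Co1). Library size alone gave -0.035 (Atp5g1), -0.0011 (Cox6a1) and -0.018 (Cox6b1). DESeq2 size factors in edgeR gave 0.030 (Ndufaf5), 0.024 (Ndufv2) and 0.00080 (Sdhaf1), DESeq2 itself gave 0.030 (Ndufaf5), 0.024 (Ndufv2) and 0.00013 (Sdhaf1), and the replicate block gave 0.0020 (Ndufaf5). With 1 library left out the values ran from -0.14 to 0.051 (Atp5a1), -0.088 to 0.14 (Atp5g1), -0.19 to 0.075 (Atp5g2), -0.14 to 0.015 (Cox14), -0.021 to 0.19 (Cox6a1), -0.97 to 0.15 (Cox6a2), -0.032 to 0.16 (Cox6b1), -0.13 to 0.0079 (Cox6c), -0.082 to 0.063 (Cox7b), -0.18 to 0.011 (Cox8a), -0.065 to 0.15 (Ndufaf5), -0.052 to 0.27 (Ndufb6), -0.11 to 0.11 (Ndufv2), -0.10 to 0.00024 (Sdha), -0.10 to 0.093 (Sdhaf1), -0.15 to 0.062 (Uqcrc2) and -0.17 to 0.055 (mt-Co1). Depth limits Cox6a2, Cox7a1, mt-Co2, mt-Co3 and mt-Nd3, with 91 to 200 counts in all.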
